A study of Mus musculus with 8 samples.

Results

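The transcription factor gene Trp53, which encodes p53, and 9 of its regulators and targets outside the BCL2 family were followed in granulosa cells of newborn mice. The genes were chosen by name, with earlier results of these data known: Trp53, Mdm2, Mdm4, Cdkn1a, Ccng1, Phlda3, Zmat3, Sesn1, Trp53inp1 and Btg2. Of these 10 names, 9 matched a row among the 11783 genes of the filtered expression table, and all 9 passed the filter on low values. Sesn1, which encodes a stress-induced regulator of mTORC1, matched no row and was not analysed here. RNA was sequenced from granulosa cells, which enclose and nourish the oocyte, in 8 libraries made from dissociated ovaries of C57BL/6 mice. There were 4 libraries from postnatal day 1 (PND1) and 4 from postnatal day 4 (PND4), and the labels name no transgene, agent or other difference between the groups. The labels say neither how many animals gave a library nor whether libraries came from separate animals, so p-values measure only the spread between these libraries, which may be technical.

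p53 is held at a low protein level by MDM2, a ubiquitin ligase, together with its relative MDM4. DNA damage and other stresses release p53 from both, and it then activates genes that stop the cell cycle, repair DNA or lead to cell death. MDM2 is itself a target, which closes a negative feedback loop. Most of this control acts on the protein, which RNA values do not measure. In the ovary p53 family members are best known for the response of follicles to DNA damage, and p21, the product of Cdkn1a, restrains cell division.

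Values are FPKM, a fragment count scaled by transcript length and library depth, so levels can be set beside each other between genes. Read depth is unknown. Totals over the listed genes ran from 443333 to 505035 FPKM per library. The libraries numbered 1 stood apart, listing 1234 genes (PND1) and 1097 genes (PND4) at exactly 0, where the remaining 6 libraries listed 222 to 858. Mitochondrial transcripts, counted only by gene symbols that begin with mt-, took 26.6% to 30.6% of the FPKM at PND1. They took 29.4% in PND4 replicate 1 and 22.4% to 23.4% in PND4 replicates 2 to 4. All 12 granulosa markers examined were listed, with sums of 616 to 811 FPKM at PND1 and 639 to 789 at PND4, and Amh among them was at 0 in some libraries. Of 11 oocyte markers 10 were listed, with sums of 11.7 to 55.4 FPKM at PND1 and 17.2 to 196 at PND4, the highest in PND4 replicate 3. Of 7 endothelial markers 0 were listed. Of 7 immune markers 4 were, with sums of 2.92 to 65.3 FPKM, the highest in PND4 replicate 1. Smooth muscle genes (3 of 6 listed, Myh11 not among them) summed to 679 to 1534 FPKM. Surface epithelium genes (5 of 6 listed) summed to 348 to 711 FPKM. Sums of 2 cell type marker lists did not overlap between ages: 8 stroma markers (94.1 to 113 FPKM at PND1, 127 to 163 at PND4) and 3 of 6 erythroid markers (17.1 to 48.9 and 0.268 to 11.4).

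The first comparison is of levels within these cells. Cdkn1a was the most abundant of the 9 genes, at 98.5 ± 29.04 FPKM over the 8 libraries (SD), which placed it at the 95.5th percentile of listed genes. Ccng1 followed at 72.2 ± 18.8, Phlda3 at 52.04 ± 17.7, Trp53 at 44.4 ± 8.79, Btg2 at 29.0 ± 5.93 and Mdm2 at 15.9 ± 2.91 FPKM. The lowest 3 were Zmat3 at 6.79 ± 2.60, Mdm4 at 4.84 ± 1.32 and Trp53inp1 at 3.52 ± 2.05 FPKM, which is the 25.3rd percentile. Some neighbours in this order did not differ beyond their spread. Cdkn1a was above Ccng1 in 7 of 8 libraries with a mean difference within 1 SD, Phlda3 was above Trp53 in 5 of 8, Zmat3 was above Mdm4 in 7 of 8, and Mdm4 was above Trp53inp1 in 4 of 8. Ccng1 was above Phlda3, Btg2 above Mdm2 and Mdm2 above Zmat3 in 8 of 8 libraries, and Trp53 was above Btg2 in 7 of 8.

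**Figure D1:**
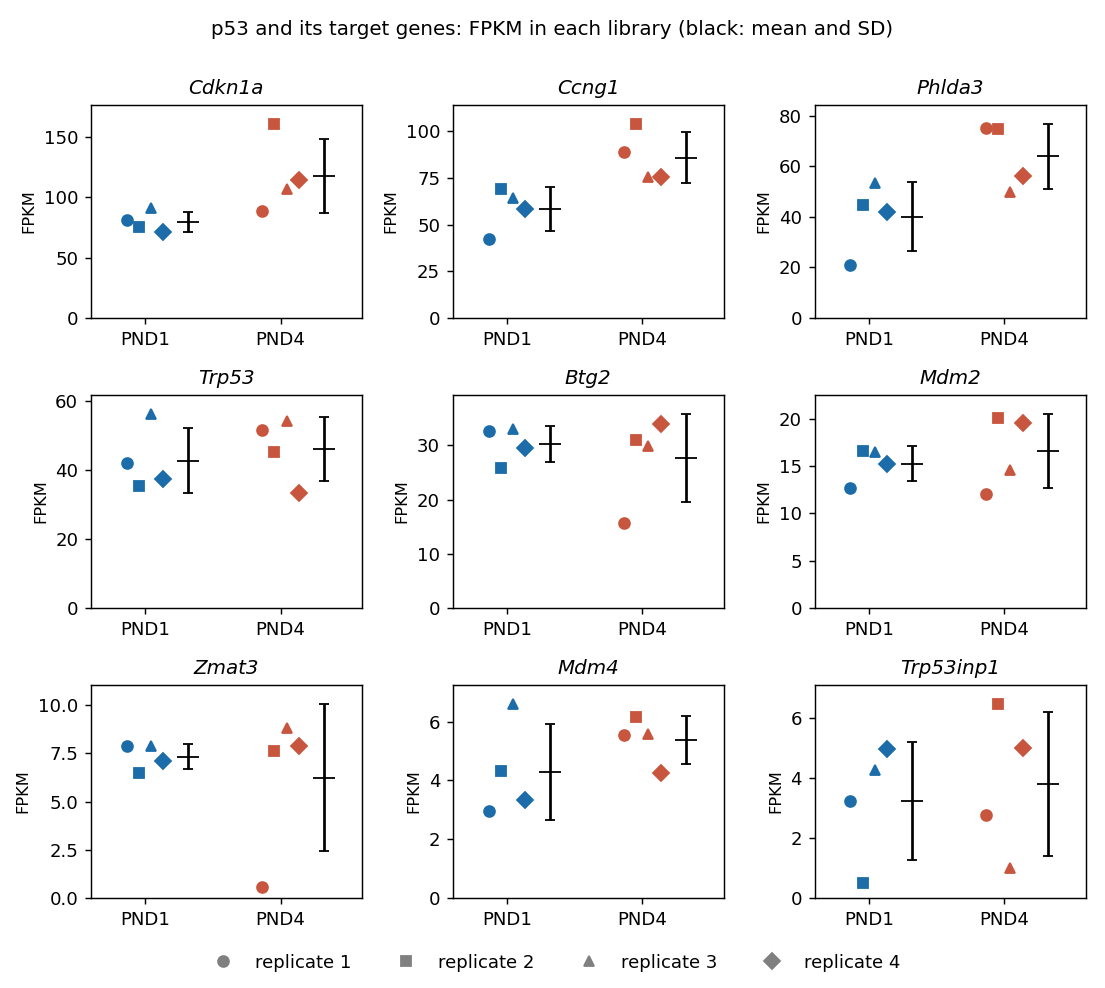
FPKM of the 9 genes (vertical axes, each from 0) at PND1 (blue) and PND4 (red); each symbol is 1 library, its shape is the replicate number, and the black bar is the mean with its SD (n = 4). Ccng1 is the gene whose PND4 libraries, 75.5 to 104 FPKM, all lie above its PND1 libraries, and Zmat3 has 1 PND4 library at 0.561 FPKM.

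The second comparison asks whether any of these genes differed between PND1 and PND4, the days in which primordial follicles form and the first of them start to grow. None of the 9 passed the test (limma on log2(FPKM + 1), smallest adjusted p = 0.740 among them), where 1 of all 10756 genes tested passed, or 0.0093%. Cdkn1a, Ccng1 and Phlda3 had higher PND4 values and unadjusted p under 0.05, while Trp53 and Mdm2 lay close to the median of all genes. In 7 of the 9 the PND4 estimate was above that of PND1, and 60.3% of all tested genes were on that side, with a median log2 difference of 0.078. The median of the 9 genes was 0.19. In bulk RNA, fewer cells of a type and less RNA per cell cannot be told apart.

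Trp53 (ENSMUSG00000059552, chromosome 11 from 69580359 to 69591873 on the plus strand, GRCm38) had 41.9, 35.3, 56.1 and 37.5 FPKM in PND1 replicates 1 to 4. At PND4 it had 51.5, 45.3, 54.04 and 33.3 FPKM. The highest and the lowest library belonged to different ages and the groups overlapped throughout. The means were 42.7 ± 9.35 and 46.01 ± 9.25 FPKM (SD, n = 4), a log2 difference of 0.10 with a 95% interval of -0.32 to 0.52 (limma, adjusted p = 0.937). With 1 library left out it ran from 0.021 (PND4 replicate 3) to 0.25 (PND4 replicate 4), and with other scaling it was 0.019 to 0.028.

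Mdm2 (ENSMUSG00000020184, chromosome 10 from 117688875 to 117710758, minus strand) encodes the ligase that marks p53 for degradation and is itself activated by p53. It had 12.7, 16.6, 16.5 and 15.2 FPKM at PND1 and 12.1, 20.1, 14.5 and 19.6 at PND4. The PND4 libraries lay on both sides of the PND1 libraries, with replicates 2 and 4 above all of them and replicate 1 below. The log2 difference was 0.092 with a 95% interval of -0.36 to 0.54 (limma, adjusted p = 0.947).

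Mdm4 (ENSMUSG00000054387, chromosome 1 from 132959484 to 133030561, minus strand) encodes the inhibitor that binds p53 but has little ligase activity alone. It had 2.96, 4.32, 6.59 and 3.32 FPKM at PND1 and 5.54, 6.15, 5.57 and 4.24 at PND4. PND1 replicate 3 held the highest value of all, and the PND4 libraries lay closer together. The log2 difference was 0.30 with a 95% interval of -0.35 to 0.96 (limma, adjusted p = 0.872). It was 0.18 without PND1 replicate 1 and 0.49 without PND1 replicate 3. Both Trp53 and Mdm4 have a processed pseudogene in GENCODE M21 (Trp53-ps and Mdm4-ps), so reads of these copies could be shared with them.

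Cdkn1a (ENSMUSG00000023067, chromosome 17 from 29090976 to 29100727, plus strand) encodes p21, an inhibitor of cyclin-dependent kinases and the best known p53 target in cell cycle arrest. It had 80.8, 75.0, 90.7 and 71.6 FPKM at PND1 and 88.7, 161, 106 and 114 at PND4. PND4 replicates 2 to 4 lay above all PND1 libraries, replicate 2 far above, and PND4 replicate 1 lay just below PND1 replicate 3. The means were 79.5 ± 8.40 and 117 ± 30.6 FPKM, 1.48-fold, with a log2 difference of 0.53 (SE 0.17, 95% interval 0.16 to 0.90; limma, unadjusted p = 0.00970, adjusted p = 0.740). With 1 library left out the difference ran from 0.37 (PND4 replicate 2) to 0.65 (PND4 replicate 1), and without both libraries numbered 1 it was 0.66. The 3 PND4 libraries above the PND1 range were also the 3 with the lowest mitochondrial share, whose part in the difference was not tested. With median-of-ratios or upper-quartile scaling the ages did not overlap, but the share of all genes that do so under these scalings was not computed. Of its 3553 exonic bases, 273 (7.68%) are shared with an unconfirmed gene on the opposite strand, AC167363.2, and no source used here says if fragments were counted by strand.

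Ccng1 (ENSMUSG00000020326, chromosome 11 from 40748552 to 40755311, minus strand) encodes cyclin G1, which recruits a phosphatase to MDM2. It had 42.1, 69.0, 64.3 and 58.4 FPKM at PND1 and 89.1, 104, 75.5 and 75.5 at PND4. All 4 PND4 libraries lay above all 4 PND1 libraries, which was the case for 3.16% of all genes tested, while 1.08% had all PND4 libraries below. The means were 58.4 ± 11.7 and 86.01 ± 13.5 FPKM, 1.47-fold, with a log2 difference of 0.56 (SE 0.17, 95% interval 0.18 to 0.94; limma, unadjusted p = 0.00734, adjusted p = 0.740). It was 0.41 without PND1 replicate 1, the lowest library, and 0.39 without both libraries numbered 1. With median-of-ratios scaling the ages overlapped, at 47.3 to 72.4 and 70.1 to 97.7, and with upper-quartile scaling they did not. The share over all genes was not computed for these scalings. Stroma marker sums were also higher at PND4 and erythroid sums lower in every library, and their part in the Ccng1 difference was not tested.

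Phlda3 (ENSMUSG00000041801, chromosome 1 from 135766119 to 135769136, plus strand) encodes a small lipid-binding protein that competes with AKT for the membrane. It had 20.9, 44.5, 53.2 and 41.8 FPKM at PND1 and 75.01, 74.6, 50.004 and 56.2 at PND4. PND1 replicate 1 stood lowest by far, PND4 replicates 1 and 2 stood highest, and PND1 replicate 3 lay above PND4 replicate 3. The means were 40.1 ± 13.7 and 64.0 ± 12.8 FPKM, 1.59-fold, with a log2 difference of 0.71 (SE 0.26, 95% interval 0.14 to 1.28; limma, unadjusted p = 0.0188, adjusted p = 0.775). Without PND1 replicate 1 the difference was 0.44, and without both libraries numbered 1 it was 0.35 (limma, unadjusted p = 0.0709). Leaving out PND4 replicate 1 or PND4 replicate 2 also moved its unadjusted p from limma above 0.05.

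An unadjusted p under 0.05 with higher PND4 values was had by these 3 of the 9 genes, against 4.06% of all genes tested, and with lower PND4 values by 0 of the 9, against 1.84%. Those shares are 437 and 198 genes, and with median-of-ratios scaling they became 241 and 321. The 9 genes were chosen with earlier results of these data known, so this contrast is descriptive and not a test. Ccng1 and Phlda3 also varied together (r = 0.95 over the 8 libraries), so the 3 genes are not independent. In all 18 alternatives run, the estimates of the 3 genes were above 0 and none of the 3 passed the adjusted test. The filter, minimum fold, robust variance and replicate block settings leave an estimate unchanged, so only the other alternatives could have turned it.

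**Figure D2:**
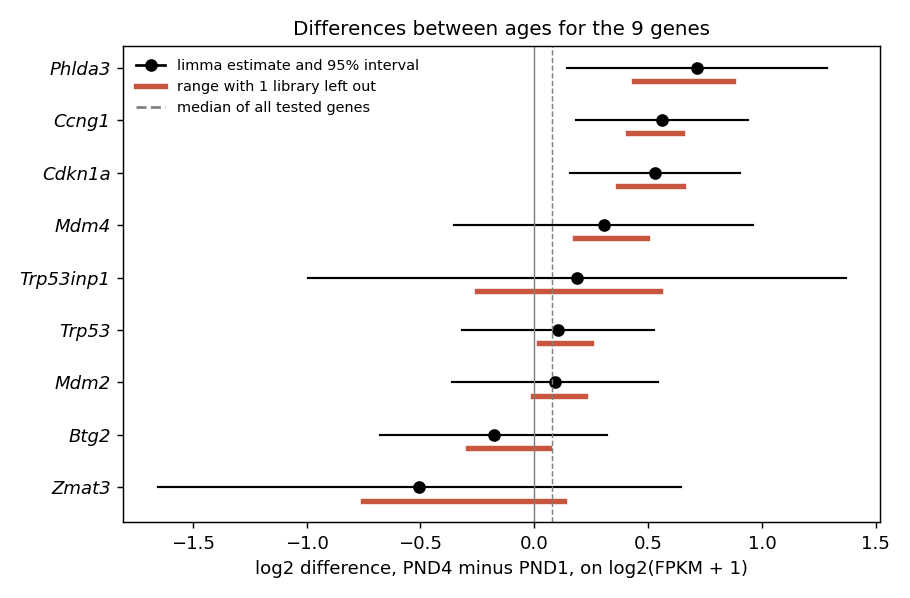
Log2 difference of each gene, PND4 minus PND1 on log2(FPKM + 1) (horizontal axis), with its 95% interval from limma (black, n = 4 per age), the range of estimates with 1 library left out (red) and the median of all tested genes at 0.078 (dashed). The intervals of Phlda3, Ccng1 and Cdkn1a lie above 0 before adjustment, and the ranges of Trp53inp1, Mdm2, Btg2 and Zmat3 cross 0.

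The sequences just upstream of these genes were read because Cdkn1a and Ccng1 are classical direct targets. RefSeq windows of 300 bases (250 before to 50 after a transcript start, GRCm38.p6) were found for 8 of the 10 genes, 11 windows in all, with none for Zmat3 and Trp53inp1. Each was searched for the p53 response element consensus, a motif of 10 letters in 2 adjacent copies without spacer, which reads the same on both strands. The best matches of Cdkn1a and Ccng1 had 1 mismatch in 20 letters, as had 0.0883% of the 32851 windows of all genes (29 windows with 1 mismatch or 0). The best match of Phlda3, which had the largest log2 difference of the 9, had 5 mismatches. A closer match, with 4 mismatches or fewer, was found in 30.2% of all windows. Capitals mark the best match in the lines that follow, on the strand of the gene.
Cdkn1a, chr17:29090908-29090967, plus strand: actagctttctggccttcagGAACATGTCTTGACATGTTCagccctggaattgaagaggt
Ccng1, chr11:40755442-40755501, minus strand: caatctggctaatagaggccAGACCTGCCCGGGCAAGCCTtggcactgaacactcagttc
Phlda3, chr1:135766022-135766081, plus strand: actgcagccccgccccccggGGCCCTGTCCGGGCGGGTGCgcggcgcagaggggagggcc
The Cdkn1a match begins 51 bases before the upstream one of its 2 annotated starts, and the Ccng1 match 195 bases before its start. The best match had 3 mismatches for Trp53, 4 for Btg2 and 5 for Mdm2. Mdm4 and Sesn1 have 2 windows each, with 3 mismatches in one and 6 in the other, and the window at the second Cdkn1a start had 5. Of all windows, 6.29% held a match with 3 mismatches or fewer. A match describes letters only, and elements outside these windows were not searched.

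Btg2 (ENSMUSG00000020423, chromosome 1 from 134075170 to 134079120, minus strand) encodes an antiproliferative cofactor that is also an immediate-early gene. It had 32.7, 25.9, 33.1 and 29.6 FPKM at PND1 and 15.7, 31.05, 29.9 and 33.9 at PND4. PND4 replicate 1 stood apart below the other 7 libraries. The log2 difference was -0.18 with a 95% interval of -0.68 to 0.32 (limma, adjusted p = 0.902), and it turned to 0.063 without PND4 replicate 1.

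Zmat3 (ENSMUSG00000027663, chromosome 3 from 32334792 to 32366014, minus strand) encodes an RNA-binding zinc finger protein. It had 7.88, 6.50, 7.88 and 7.12 FPKM at PND1 and 0.561, 7.65, 8.83 and 7.90 at PND4. Apart from PND4 replicate 1 the libraries lay within a narrow range at both ages. The log2 difference was -0.51 with a 95% interval of -1.65 to 0.64 (limma, adjusted p = 0.874), and it turned to 0.13 without that library.

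Trp53inp1 (ENSMUSG00000028211, chromosome 4 from 11156431 to 11174379, plus strand) encodes a stress protein that acts in autophagy and cell death. It had 3.22, 0.511, 4.26 and 4.97 FPKM at PND1 and 2.75, 6.46, 1.003 and 4.99 at PND4. Low and high libraries occurred at both ages, and its coefficient of variation was 60.4% at PND1 and 63.3% at PND4. The log2 difference was 0.19 with a 95% interval of -0.996 to 1.37 (limma, adjusted p = 0.963).

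In the authors' deposited table, whose fold is PND1 over PND4, the values were 0.692 for Ccng1, 0.718 for Cdkn1a, 0.637 for Phlda3, 1.74 for Zmat3, 1.23 for Btg2, 0.829 for Mdm4, 0.921 for Trp53, 0.956 for Trp53inp1 and 0.996 for Mdm2. The smallest p-values of the 9 in the authors' deposited table were 0.0516 for Ccng1 and 0.0614 for Cdkn1a, and q-values ran from 0.742 to 0.993. The authors' deposited table had 0 of the 9 genes with a p under 0.05, against 6.55% of its 11783 genes, and so differs from the limma test, which had 3 of the 9.

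Correlations between pairs of the 9 genes ran from -0.42 (Phlda3 and Zmat3) to 0.96 (Btg2 and Zmat3). Of their 36 pairs, 11 had a Pearson correlation of log2(FPKM + 1) above 0.5 over the 8 libraries and 0 had one below -0.5, with a median of 0.25. The same share for pairs of other genes was not computed. The 8 points share library, depth and age, so these values describe the libraries. Ccng1 and Phlda3 had r = 0.95 (0.92 after the mean of each age was taken out, 0.90 without PND1 replicate 1). Cdkn1a and Ccng1 had r = 0.70 over all libraries but 0.29 after the mean of each age was taken out, and for Cdkn1a and Phlda3 these were 0.56 and 0.13. Cdkn1a and Mdm2 had 0.61 and 0.71. Btg2 and Zmat3 had r = 0.96, which was 0.64 without PND4 replicate 1, where both were lowest. Trp53 and Mdm2 had r = -0.37. Further pairs moved in both directions without PND4 replicate 1. Mdm2 fell from 0.56 to 0.096 with Btg2 and from 0.55 to -0.16 with Zmat3. It rose from 0.44 to 0.84 with Ccng1 and from 0.40 to 0.87 with Phlda3. Trp53 and Zmat3 went from -0.26 to 0.63.

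**Figure D3:**
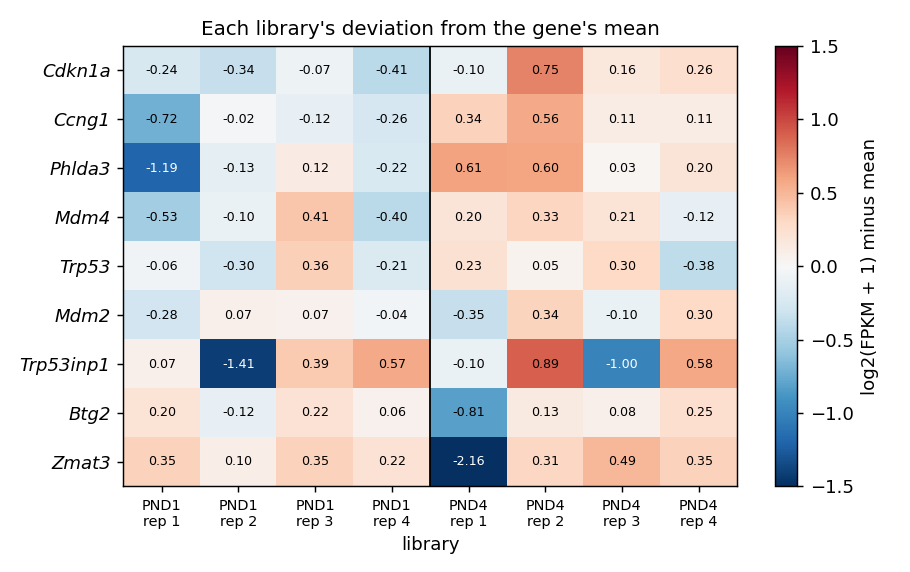
Deviation of log2(FPKM + 1) from the gene's mean over the 8 libraries, by gene (rows) and library (columns, PND1 left of the line), with the value in each cell; the Zmat3 value in PND4 replicate 1 lies past the end of the color scale. Phlda3 (-1.19) and Ccng1 (-0.72) are lowest in PND1 replicate 1, and Zmat3 (-2.16) and Btg2 (-0.81) in PND4 replicate 1.

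Genes with the most similar pattern were sought among 4833 genes with a mean above the median of tested genes. For Cdkn1a they were Inhba (r = 0.95 over 8 libraries), Slc7a5 (0.94) and Nedd1 (0.94). Inhba encodes an activin subunit, and its means were 30.9 ± 2.01 FPKM (PND1) and 40.8 ± 10.6 FPKM (PND4). For Mdm2 they were Psme3 (0.97), Zfp277 (0.96) and Kxd1 (0.96), and for Trp53 they were Eefsec (0.91), Nfic (0.90) and Senp6 (0.90). With 8 libraries and 4833 candidates such values describe likeness only.

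Upstream of p53, 20 of 25 regulators were tested (Prkdc, Crebbp, Cdkn2a, Trp63 and Trp73 matched no row). None passed the test over all genes. At PND4 17 were higher and 3 lower, beside 60.3% of all genes higher, and their median log2 difference of 0.16 is to be read beside 0.078 for all genes. It was 0.082 to 0.090 with other scaling, where the median of all genes was 0.0010 to 0.0086. An unadjusted p under 0.05 with higher PND4 values was had by 3 of the 20, beside 4.06% of all genes. That count was 1 with either other scaling and 0 without PND1 replicate 2, PND4 replicate 3 or PND4 replicate 4, and 1 without PND1 replicate 1, PND1 replicate 3 or PND4 replicate 2. The summed level of the 20 regulators did not overlap between ages, at 1069 to 1192 FPKM at PND1 and 1245 to 1314 at PND4. Npm1 and Rpl11, the highest of them, weigh most in this sum, which was not computed with other scaling. Taken singly, 1 of the 20 had all PND4 libraries above all PND1 libraries, beside 3.16% of all genes tested. Chek2, a kinase that phosphorylates p53 after DNA breaks, averaged 2.11 ± 2.47 FPKM over the PND1 libraries, of which replicate 1 was listed at 0, and 5.30 ± 1.32 over the PND4 libraries. Its log2 difference was 1.33 (unadjusted p = 0.0275, adjusted p = 0.805 by limma). Npm1, a nucleolar protein that can bind MDM2, stood at 342 ± 38.5 and 407 ± 33.9 FPKM (limma, unadjusted p = 0.0422, adjusted p = 0.805). Rpl11, a ribosomal protein that inhibits MDM2, was nearly level at 267 ± 10.8 and 280.0 ± 8.97 FPKM.

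Of 18 further targets in arrest and DNA repair 17 were tested (Ercc5 matched no row), with 14 higher and 3 lower at PND4, 0 past the test and a median of 0.38. Of all genes 60.3% were higher, with a median of 0.078. An unadjusted p under 0.05 (limma) was had by 0 of the 17. The list median was 0.30 to 0.31 with other scaling, 0.11 without PND1 replicate 2, and at most 0.43 with any 1 library left out. Rps27l stood at 68.5 ± 21.3 and 74.2 ± 13.2 FPKM, the kinase gene Plk2 at 39.2 ± 9.45 and 43.8 ± 5.14, Pml at 10.5 ± 3.94 and 15.7 ± 4.24 (limma, unadjusted p = 0.0822) and Tigar, a regulator of glycolysis, at 4.83 ± 1.12 and 7.25 ± 1.97 FPKM (unadjusted p = 0.115).

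Of 13 targets in cell death and clearance outside the BCL2 family 12 were tested (Dram1 matched no row), with 9 higher and 3 lower and a median of 0.053. Over all genes tested, 60.3% were higher and the median was 0.078. With other scaling 6 of the list were higher and 6 lower, and the list median was -0.012 to -0.0041. With 1 library left out the list median ran from 0.050 (without PND4 replicate 4, with 6 higher) to 0.24 (without PND4 replicate 1). Ei24, an endoplasmic reticulum protein gene induced by p53, had the smallest p of the genes in these lists. It had 20.7, 18.9, 29.2 and 22.5 FPKM at PND1 and 31.99, 36.003, 32.2 and 41.4 at PND4. Its ages did not overlap, with PND4 higher, as in 3.16% of all genes tested. Its log2 difference was 0.62 (SE 0.17; limma, unadjusted p = 0.00367, adjusted p = 0.736). Aen, a p53-induced exonuclease gene, had the opposite direction, at 11.4 ± 3.08 and 6.86 ± 3.07 FPKM (limma, unadjusted p = 0.0414, adjusted p = 0.805), with 1 PND4 library at 11.4. Siva1 stood at 18.3 ± 2.56 and 18.98 ± 2.51 FPKM.

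Of 15 secreted and metabolic targets 12 were tested (Dgka and Gls2 matched no row and Dcxr was too low), with 9 higher and 3 lower, 0 past the test and a median of 0.26. The list median was 0.18 to 0.19 with other scaling, and 60.3% of all genes were higher. Gdf15, a stress-induced secreted factor, had 5.23, 1.54, 1.86 and 6.15 FPKM at PND1 and 10.4, 3.67, 15.4 and 14.1 at PND4. PND4 replicate 2 lay inside the PND1 range, and the log2 difference was 1.34 (unadjusted p = 0.0165, adjusted p = 0.753 by limma). Ephx1, an epoxide hydrolase gene, stood at 14.5 ± 5.78 and 24.3 ± 9.25 FPKM (limma, unadjusted p = 0.0908). The matrix gene Thbs1 stood at 396 ± 106 and 435 ± 24.0 FPKM.

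Downstream of p21, the cyclins, kinases and pocket proteins (16 tested) were 8 higher and 8 lower, with a median of 0.034, or -0.052 to -0.044 with other scaling, and 0 past the test. With 1 library left out it ran from -0.032 (without PND4 replicate 4) to 0.11 (without PND4 replicate 3), and without both libraries numbered 1 it was -0.068, with 4 higher. Pcna, which binds p21, stood at 212 ± 8.56 and 227 ± 29.01 FPKM, Ccnd2 at 187 ± 20.9 and 155 ± 19.3 (limma, unadjusted p = 0.0523, adjusted p = 0.805), and the pocket protein gene Rbl1 at 13.3 ± 4.55 and 17.03 ± 2.87. The 20 cell cycle genes that p53 represses through p21 and the DREAM complex were 18 higher and 2 lower at PND4, with a median of 0.27 and 0 past the test. That rested on PND1 replicate 1, in which they summed to 273 FPKM against 432 to 544 in the other 7 libraries. Without it 12 were higher, with a median of 0.041, and without both libraries numbered 1 7 of 18 were higher, with a median of -0.058. Over all genes tested in the 8 libraries, 60.3% were higher, with a median of 0.078. That median was 0.028 without PND1 replicate 1 and 0.085 without both libraries numbered 1. Mcm2 stood at 79.1 ± 10.97 and 88.1 ± 8.80 FPKM, Rrm2 at 74.01 ± 19.8 and 75.6 ± 14.0, Aurkb at 14.02 ± 8.10 and 20.8 ± 5.43 and Ccnb2, listed at 0 in PND1 replicate 1, at 8.48 ± 7.71 and 12.1 ± 3.09.

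Immediate-early genes, which stress and tissue dissociation induce quickly and to which Btg2 also belongs, were 8 higher and 8 lower of 16 tested, with a median of -0.0047. With other scaling 5 or 6 were higher and the median was -0.087 to -0.082. With 1 library left out it ran from -0.076 (PND1 replicate 2) to 0.070 (PND4 replicate 1). Their sums overlapped, at 589 to 737 FPKM at PND1 and 577 to 721 at PND4. They were lowest in PND4 replicate 1, where Btg2 was also lowest, and their part in that value was not tested. Ier3 stood at 190 ± 31.1 and 151 ± 17.4 FPKM (limma, unadjusted p = 0.0361, adjusted p = 0.805), Fos at 14.0 ± 3.81 and 8.84 ± 2.93 (limma, unadjusted p = 0.0447, adjusted p = 0.805) and Jund at 159 ± 32.1 and 161 ± 32.5.

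**Figure D4:**
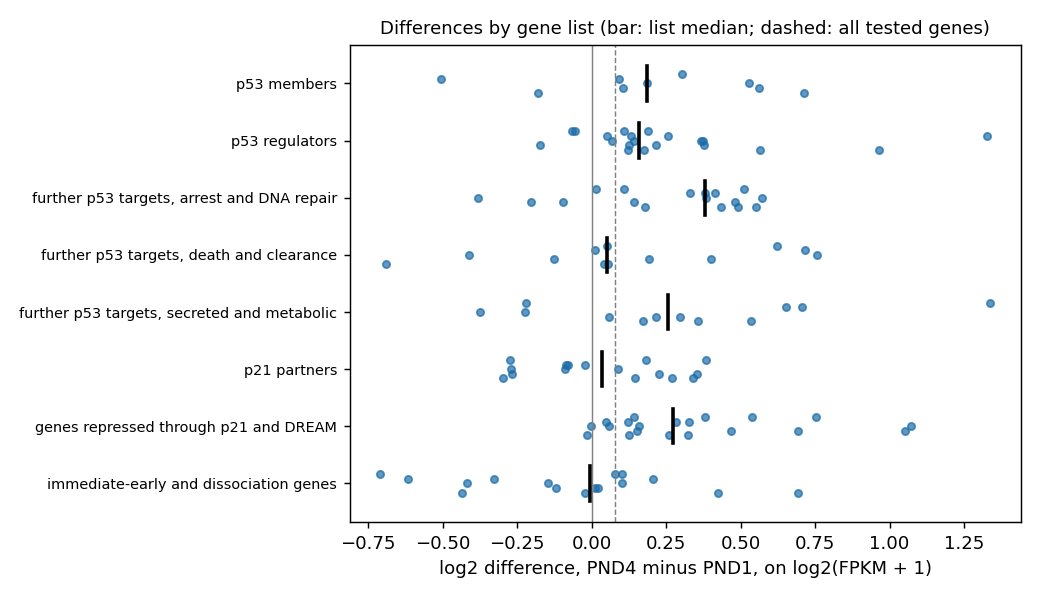
Log2 difference of each tested gene, PND4 minus PND1 on log2(FPKM + 1) (horizontal axis), by gene list (rows); points are genes, black bars list medians, and the dashed line is the median of all tested genes at 0.078. The list medians lie between -0.0047 and 0.38.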

How the data were processed

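RNA-seq of 8 libraries was analysed from the authors' tables. The submitters' processing notes name Trim Galore (a read trimmer), HISAT2 (an aligner) and the build GRCm38. The authors deposited FPKM per gene, per the file headers; for the program, annotation, strand setting and row filter nothing was stated. A deposited signal column, the sum of the FPKM, was not used. A second deposited table gives per gene a fold (ratio) with its log2 and, from the authors' own test, p-value and q-value, read only for values named as such.

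Since the unit is FPKM, log2(FPKM + 1) was tested with limma 3.58.1 (R 4.3.3, mean-dependent prior variance, no block), PND4 minus PND1, for the 10756 genes that reached 1 FPKM in 4 or more libraries, with Benjamini-Hochberg adjustment over all of them (threshold 0.05). This scale understates changes of low genes. The fit was also run on simulated data with independent normal errors and no difference between libraries beyond age. That run does not cover libraries that stand apart, as those numbered 1 did. The median 95% interval of a log2 difference reached 0.65 to either side.

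Members and gene lists were chosen with earlier results of these data known. Named were all members and, per list, the 2 highest genes, the 2 with the smallest p, any past the threshold, and the 3 genes most correlated with Trp53, Mdm2 and Cdkn1a (predicted loci left out). The values of 1 gene that this rule names are not reported here. Positions are from GENCODE M21 (11770 of 11783 identifiers found), promoters from RefSeq (GRCm38.p6). Alternatives were scaling, filter, pseudocount (0.1, 5), minimum fold 1.5, robust variance, replicate block, each library left out and, added after seeing the data, both libraries numbered 1 left out. Figures used matplotlib 3.10.9.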

Additional observations from a re-analysis of the deposited data

Results flagged for a closer look

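Single libraries far from the other 3 of their age were looked for in 33 named genes, which is 66 groups of 4 libraries, where chance flags about 1 in 20. There were 3 such values, all in PND4 replicate 1. Zmat3 stood there at 0.561 FPKM, against 7.65 to 8.83 in the other PND4 libraries. Ephx1 stood at 10.5 FPKM against 27.7 to 30.3, and Aen at 11.4 FPKM against 5.09 to 5.81. That library listed 1097 genes at 0, and the part of this in the 3 values was not tested.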

How the results depend on the processing

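The 9 genes were refitted under 18 alternatives, which gave 161 values, since Trp53inp1 was untested with at least 5 FPKM required. None passed the adjusted test (adjusted p = 0.513 to 1.00, limma), 154 kept their direction and 7 turned it. The 154 include the filter, minimum fold, robust variance and replicate block settings, under which an estimate cannot change. With 1 library left out the log2 difference ran from -0.25 to 0.55 for Trp53inp1 (-0.081 without PND4 replicate 2), from -0.75 to 0.13 for Zmat3, from -0.29 to 0.063 for Btg2 and from -0.0050 to 0.22 for Mdm2. Without both libraries numbered 1 it was 0.16 for Zmat3 and 0.10 for Btg2. Over all genes, 0 were called higher under every alternative. The number called lower, 1, was 0 to 1 with 1 library left out (0 without any PND1 library) and 0 without both libraries numbered 1. Genes with an unadjusted p under 0.05 (437 higher, 198 lower) were 229 and 345 with upper-quartile scaling and 32 and 25 with a minimum fold of 1.5. With the replicate block 0 genes were called higher and 1 lower, and no call changed. Same-numbered libraries had deviations that correlated at r = 0.046, -0.0088, 0.032 and 0.12, the last being the highest of all pairs across ages. Not every library correlated best with its own number. Whether the numbers pair the libraries is unknown, and correlations this small cannot decide it. Read depth is unknown, so counting error of the low genes Trp53inp1, Mdm4 and Zmat3 could not be given.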

Other observations

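Ratios within a library, which no scaling changes, were looked at after the values were seen. Cdkn1a over Trp53 was 1.93, 2.12, 1.62 and 1.91 in the PND1 libraries and 1.72, 3.55, 1.97 and 3.43 at PND4. PND4 replicates 2 and 4 lay above the other 6 libraries, which ran from 1.62 to 2.12. Mdm2 over Mdm4 ran from 2.18 to 4.62 over the 8 libraries, with both ages spread over most of that range (3.81 ± 0.918 at PND1 and 3.17 ± 1.07 at PND4). Phlda3 over Ccng1 was 0.671 ± 0.138 and 0.742 ± 0.0754, and it ran from 0.498 to 0.842 over the 8 libraries.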
